A study of Mus musculus with 20 samples.

Results

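The transporter genes described here were taken from 78 genes listed for the liver libraries with symbols that begin with Abca, Abcb, Abcc, Abcg, Slco, Slc22a or Slc47a. The 46 with a mean of at least 10 counts per library were kept, out of 22298 genes in all. This rule of symbol and count used no measure of a difference between groups. The genes and the roles given below were, however, chosen with earlier results of these data known. Just inside the limit were Abcb1b, with a mean of 12.4 counts, and Slc22a28, with 19.5 counts, and just outside it was Slc22a17, with 7.05 counts. Slc22a12, which encodes URAT1, the renal urate carrier that benzbromarone inhibits, had a mean of 1.88 counts in liver and was therefore not kept. By known function the 46 genes were sorted into 9 carriers that bring substances from blood into cells (uptake), 7 that pump them into bile (canalicular efflux), 6 that return them to blood (basolateral efflux), 2 that export cell cholesterol (lipid efflux), 7 of intracellular membranes and 15 others.

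A hepatocyte faces blood on its basolateral side and bile on its canalicular side. Carriers of the SLCO family, which take up bile acids, hormone conjugates and drugs, and of the SLC22 family, which take up organic cations, organic anions and carnitine, load the cell from blood. ATP-binding cassette (ABC) pumps move conjugates, phospholipid and sterols out, either into bile or, from the basolateral side, back into blood, and the SLC47 carrier MATE1 exports organic cations. Several of these genes have near-identical neighbours in the mouse genome, and some SLCO genes are known for levels that differ between male and female livers.

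Each of the 20 libraries was made from the liver of 1 male mouse of the Lepr db/db genotype, a model of obesity and diabetes in which the leptin receptor does not signal, with 5 mice per group. All mice received an AAV8 vector by tail vein at 5 weeks of age, so that every group, controls included, carries a viral vector, and tissue was taken after 6 h of fasting. The Vec group had a non-targeting shRNA and vehicle, and the Vec+BBR group had the same vector and benzbromarone (BBR) by gavage at 25 mg/kg daily for 4 weeks. The shRNA group had a vector with shRNA against Pparg, the gene of the nuclear receptor PPARγ, and vehicle, and the shRNA+BBR group had that vector and BBR. The promoter of the vector was not given in the sources used here, and in whole liver RNA fewer cells of a type and less RNA per cell cannot be told apart.

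Libraries held between 17432904 and 25024099 expected counts, and 3 counts, the level below which a gene was not told apart from 0, corresponded to between 0.12 and 0.172 CPM (counts scaled to the same library total). Pparg itself ran from 16.4 to 35.9 CPM in Vec, from 28 to 38.3 in Vec+BBR, from 3.24 to 7.31 in shRNA and from 7.19 to 21.8 in shRNA+BBR, so Pparg was lower in both groups given its shRNA, and less so with BBR. The hepatocyte marker Alb was at least 75123 CPM in every library. Differences are log2 fold changes ± their standard error from edgeR's quasi-likelihood test across 12342 genes, with Benjamini-Hochberg adjusted p-values over all of them and a threshold of 0.05. All 46 transporter genes passed the filter on low counts.

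In Vec livers the levels per transcript length, as deposited FPKM values, of the 46 genes ranged from 94.3 ± 16.8 (SD, n = 5) for Slc22a18 to 0.122 ± 0.0786 for Abcb1b. The next genes in the order were Slco2b1 with 67.1 ± 11.8 FPKM, Slco1b2 with 66.4 ± 16.8, Abcc2 with 60.3 ± 9.02, Abcb4 with 58 ± 3.42 and Abcc3 with 56.7 ± 13.5. These 5 neighbours lay within their spread of each other. Between Vec mice the coefficient of variation of a gene's CPM had a median of 21.9% and ran from 3.7% for Abcb10 to 76.4% for Slc22a26.

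**Figure D1:**
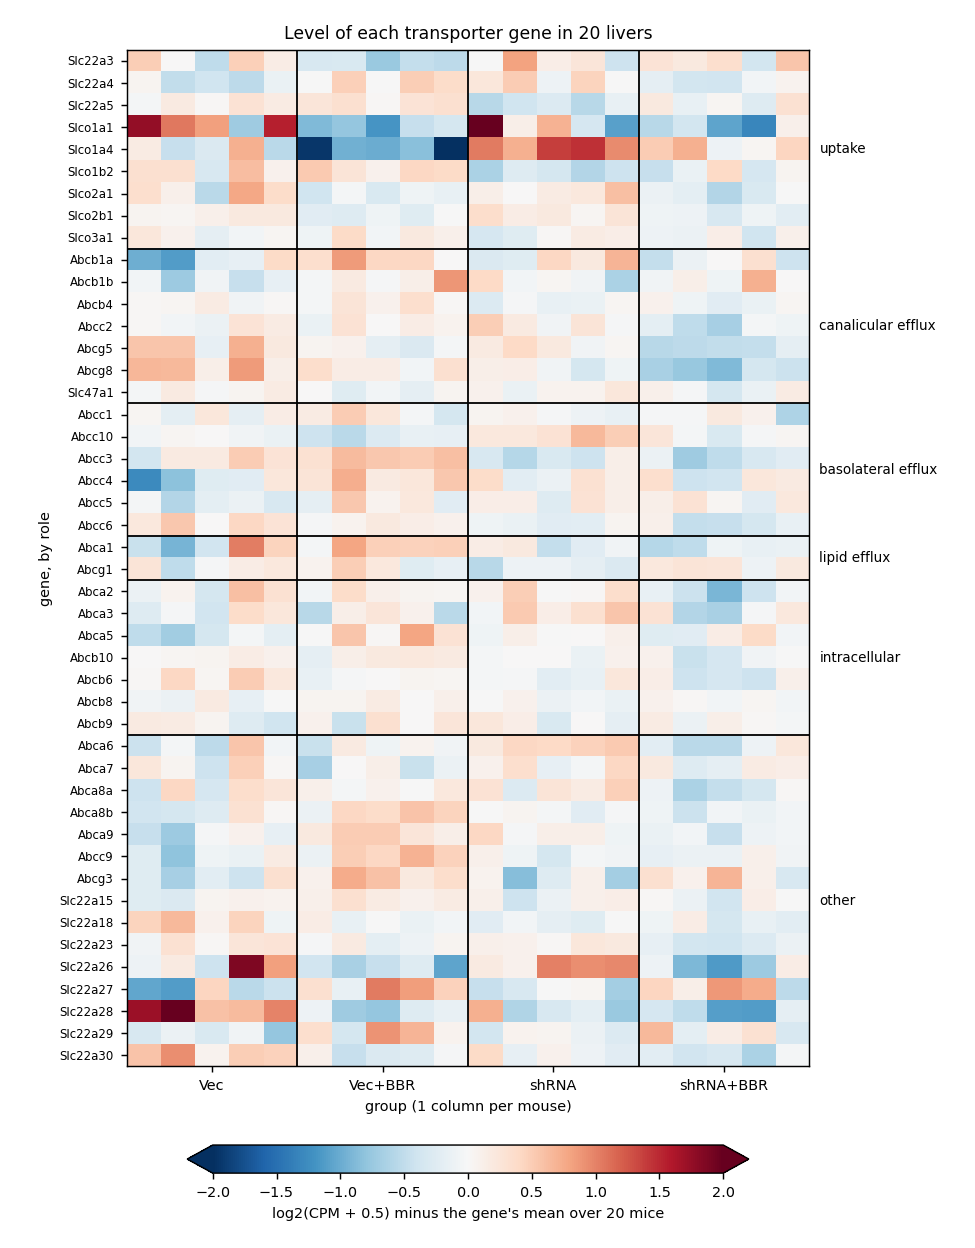
Each row is 1 of the 46 transporter genes, sorted by role, and each column is 1 of 20 mice in 4 groups of 5. Colour is log2(CPM + 0.5) minus the gene's mean over all 20 mice, cut at 2 on either side; Slco1a4 is lowest in Vec+BBR and highest in shRNA.

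In Vec+BBR against Vec, 9 of the 46 genes rose and 9 fell, beside 7.58% of all tested genes that rose and 7.88% that fell. Of the 9 uptake carriers 4 fell (Slc22a3, Slco1a1, Slco1a4 and Slco2b1), 1 rose (Slc22a4) and 4 did not pass, with a median log2 fold change of −0.28. Of the 15 efflux carriers 2 rose (Abcb1a and Abcc4) and 1 fell (Abcg5), with a median of 0.11. The median over all 46 genes was 0.05 and over all tested genes −0.005.

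Under the knockdown the same drug contrast gave 1 transporter gene that rose and 12 that fell, beside 8.37% and 7.28% of all tested genes. The gene that rose in shRNA+BBR against shRNA was Slc22a5. Uptake carriers Slco1a1, Slco1a4 and Slco2b1 fell, and so did 4 of the 15 efflux carriers (Abcc2, Abcc10, Abcg5 and Abcg8). The median over the 46 genes was −0.13, with 0.008 over all tested genes.

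The knockdown itself, in shRNA against Vec, raised 3 transporter genes (Slco1a4, Slc22a4 and Abcc10) and lowered 8, beside 5.28% and 7.91% of all tested genes. The 8 that fell were the uptake carriers Slc22a5 and Slco1b2, the efflux carriers Abcc3, Abcc6 and Abcg8, and Slc22a18, Slc22a28 and Slc22a30. Among BBR-treated mice, in shRNA+BBR against Vec+BBR, 2 rose (Slco1a4 and Slc22a3) and 4 fell (Abcc3, Abcg8, Abca8b and Abcc9), beside 3.31% and 4.82% of all tested genes. The 2 that rose, 4.3% of the 46, and the 3 that rose with the knockdown alone, 6.5%, are shares near their background. In all, 29 of the 46 genes passed the threshold in at least 1 of these 4 comparisons and 17 in none. The same count was not made over all tested genes, so it has no background share to be read beside. Since each group enters 2 comparisons, the counts of the 4 comparisons are not independent of each other.

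**Figure D2:**
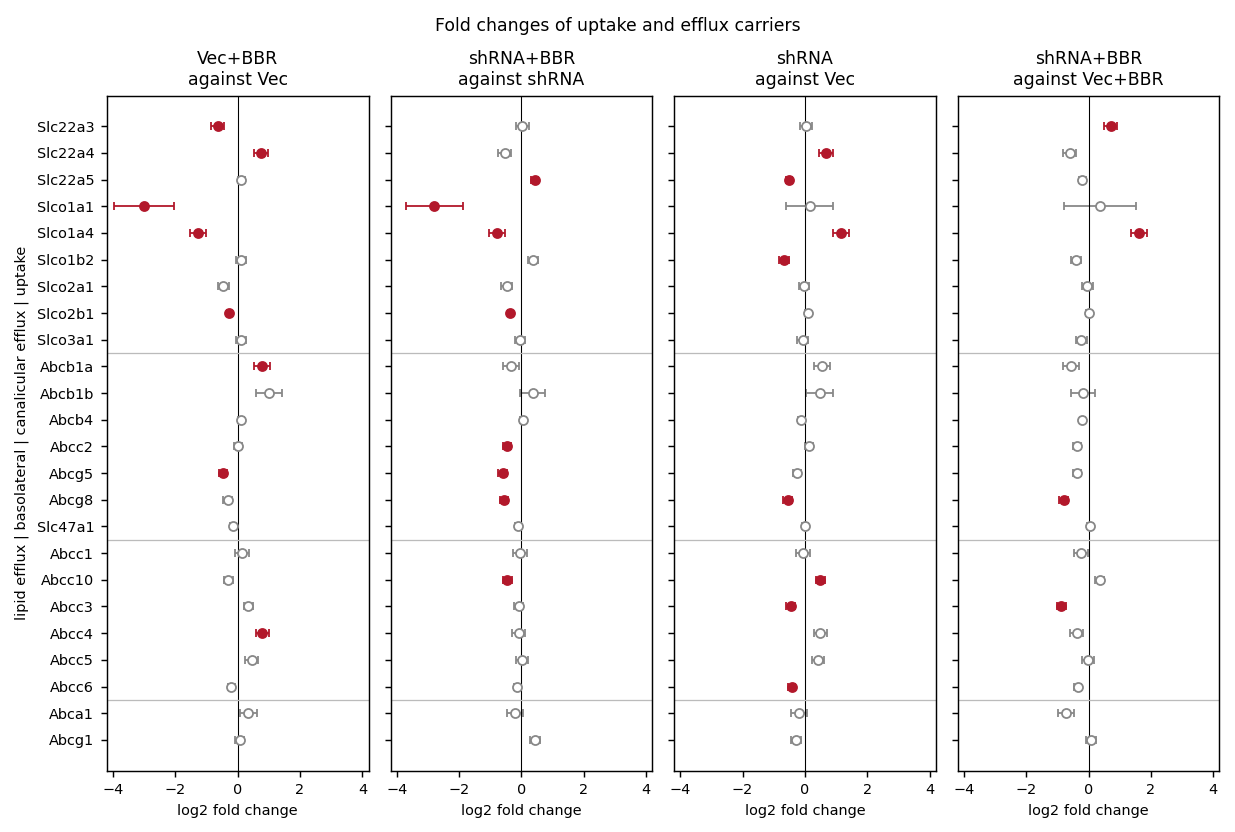
Points are log2 fold changes of the 24 uptake and efflux carriers in 4 comparisons, bars are standard errors, and filled red points passed an adjusted p of 0.05 in edgeR; grey lines part the roles. Slco1a4 is the 1 carrier filled in all 4 panels, to the left with BBR and to the right with the knockdown.

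Slco1a4 and Slco1a1 are neighbours on chromosome 6 that encode sinusoidal organic anion carriers, the first known for higher levels in female and the second in male mouse liver. Slco1a4 lies at chr6:141805440-141856199 and Slco1a1 at chr6:141907282-141946962, both on the minus strand (GENCODE M21 on GRCm38, as for all genes here). The 250 bases before each RefSeq start (GRCm38.p6, gene strand) are shown because both genes were called lower with BBR, Slco1a1 at few counts. Capitals mark matches on either strand to the half-site AGGTCA that many nuclear receptors bind and to GTTAAT from the site of HNF1 factors. Capitals also mark the CCAAT box and the TATA box, written as TATAAA. The 2 stretches span chr6:141856221-141856470 and chr6:141946963-141947212.
Slco1a4: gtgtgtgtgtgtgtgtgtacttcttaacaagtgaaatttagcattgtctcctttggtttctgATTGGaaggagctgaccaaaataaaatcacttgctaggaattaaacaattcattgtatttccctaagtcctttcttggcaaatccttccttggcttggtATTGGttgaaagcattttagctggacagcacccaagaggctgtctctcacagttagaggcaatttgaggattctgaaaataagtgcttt
Slco1a1: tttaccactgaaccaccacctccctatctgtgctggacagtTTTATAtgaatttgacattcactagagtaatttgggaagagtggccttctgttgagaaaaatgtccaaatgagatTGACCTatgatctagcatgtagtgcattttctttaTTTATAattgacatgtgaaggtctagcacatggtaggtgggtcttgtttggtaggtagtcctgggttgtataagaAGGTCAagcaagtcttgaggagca
The Slco1a4 window held 2 matches to CCAAT, a motif found in 37.4% of all 32851 promoter windows (250 bases before to 50 after a start). The Slco1a1 window held 2 matches to AGGTCA, found in 16.3% of windows, and 2 to TATAAA, found in 13.6%. Aligned without gaps the 2 promoter windows were identical at 30.4% of 299 positions. A match is a run of letters and not a measured binding site.

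In Slco1a4 the CPM was 62.2, 40.2, 45.7, 91.5 and 38.3 in Vec and 14.1, 28.5, 27.8, 31.1 and 13.7 in Vec+BBR, with no overlap. It was 115, 91.3, 146, 155 and 108 in shRNA and 79.6, 91.7, 51.9, 57.1 and 75.5 in shRNA+BBR, where 1 mouse reached just above the lowest shRNA mouse. The gene fell by 1.27 ± 0.26 with BBR in Vec mice (edgeR adjusted p = 0.00283) and rose by 1.15 ± 0.26 with the knockdown (adjusted p = 0.00542). Among BBR-treated mice it was higher with the knockdown by 1.63 ± 0.26 (adjusted p = 0.00112). These 3 calls held with any 1 mouse left out. With BBR under the knockdown it fell by 0.79 ± 0.25 (adjusted p = 0.0407), a call that was lost without shRNA replicate 1, 3, 4 or 5 or shRNA+BBR replicate 3 or 4 (adjusted p up to 0.119). The difference between the 2 BBR effects was 0.48 ± 0.36 (adjusted p = 0.477).

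Slco1a1 was a gene of low level in these male livers and came near the limit of detection in the BBR-treated groups. It was below that limit of 3 counts in the lowest mouse of Vec+BBR, shRNA and shRNA+BBR, at 1, 2 and 0 counts. Its CPM was 3.66, 2.06, 1.67, 0.254 and 3.11 in Vec and 0.171, 0.224, 0.0476, 0.402 and 0.471 in Vec+BBR, where libraries held between 1 and 10 counts. In shRNA it was 9.14, 0.837, 1.49, 0.482 and 0.0833, and in shRNA+BBR 0.339, 0.456, 0.0947, 0 and 0.831. The log2 fold change with BBR was −3.01 ± 0.96 in Vec mice (edgeR adjusted p = 0.0378) and −2.79 ± 0.91 under the knockdown (adjusted p = 0.0437). The first call was lost without Vec replicate 1, 2 or 5 or without any 1 Vec+BBR mouse (adjusted p up to 0.092). The second was lost without shRNA replicate 1 (log2 fold change −1.07, adjusted p = 0.368), whose 9.14 CPM stood above all other mice, and without shRNA+BBR replicate 1, 2, 3 or 4 (adjusted p up to 0.114), and with a replicate block (0.0655). The exact two-sided permutation test over 5 against 5 mice gave p = 0.135 for the second comparison. Reads of Slco1a1 and Slco1a4 could be shared with other Slco1a genes of the same cluster, so that both genes' values are uncertain to that extent.

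Slco1b2, which encodes the OATP1B2 carrier of bile acids and bilirubin conjugates, lies at chr6:141629518-141686646 in the same cluster. Its CPM was 245, 245, 158, 302 and 209 in Vec and 127, 165, 154, 131 and 147 in shRNA, so that 1 Vec mouse lay among the shRNA mice. It fell by 0.68 ± 0.16 with the knockdown (edgeR adjusted p = 0.00696), a call kept with any 1 mouse left out. With BBR in Vec mice the log2 fold change was 0.10 ± 0.16 (adjusted p = 0.711) and under the knockdown 0.38 ± 0.16 (adjusted p = 0.101).

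Slc22a5, which encodes the carnitine carrier OCTN2 and is known as a target of PPAR receptors, lies at chr11:53864542-53891660. Its CPM was 35.5, 41.5, 37.2, 44.4 and 40.7 in Vec, all above the 24.7, 27.5, 30, 24.6 and 32.8 in shRNA. In shRNA+BBR the CPM was 41.9, 32.8, 37.5, 30.4 and 45.2, so that the group overlapped both Vec and shRNA, while 4 of the 5 shRNA mice lay below all of it. The gene fell by 0.51 ± 0.11 with the knockdown (edgeR adjusted p = 0.00326) and rose by 0.43 ± 0.11 with BBR under the knockdown (adjusted p = 0.0152), and both calls held with any 1 mouse left out. In Vec mice the change with BBR was 0.11 ± 0.11 (adjusted p = 0.533), and the difference between the 2 BBR effects was 0.32 ± 0.15 (adjusted p = 0.268). Pparg, whose CPM in shRNA+BBR was above that in shRNA by 1.28 ± 0.28 (adjusted p = 0.00773), moved in the same direction in both comparisons, and its part in the result was not tested.

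Slco2b1, the gene of a broad organic anion carrier, had 226, 225, 234, 251 and 249 CPM in Vec and 187, 182, 205, 185 and 217 in Vec+BBR. In shRNA the values were 279, 242, 251, 225 and 262, and in shRNA+BBR 205, 203, 174, 206 and 189. In both pairs the BBR mice lay below all mice without BBR. The fall with BBR was small, by 0.28 ± 0.08 in Vec mice (edgeR adjusted p = 0.0178) and by 0.37 ± 0.08 under the knockdown (adjusted p = 0.00635). The first call was lost without Vec+BBR replicate 4 (adjusted p = 0.052), and the second was kept with any 1 mouse left out.

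Slc22a3, with 6.52 FPKM in Vec, and Slc22a4, with 0.44 FPKM, were the remaining uptake carriers that passed. Slc22a3, the cation carrier OCT3, fell by 0.64 ± 0.21 with BBR in Vec mice (edgeR adjusted p = 0.04) and was higher by 0.71 ± 0.21 in shRNA+BBR than in Vec+BBR (adjusted p = 0.0376). Each of these calls was lost in 8 of the 10 fits that left out 1 mouse, with an adjusted p up to 0.111 and 0.0925. The first was lost without Vec replicate 1, 2, 4 or 5 or Vec+BBR replicate 2, 3, 4 or 5 and with a replicate block (adjusted p = 0.0532), and the second without Vec+BBR replicate 2, 3, 4 or 5 or shRNA+BBR replicate 1, 2, 3 or 5. Exons of Slc22a3 share 420 bases with Plg, the abundant plasminogen gene on the opposite strand, which fell by 0.52 ± 0.11 with BBR in Vec mice (adjusted p = 0.00263), and the library kit did not mark strand. The log2 fold change of Plg was −0.04 ± 0.11 in shRNA+BBR against Vec+BBR (adjusted p = 0.847), where Slc22a3 was higher, and its part in the values of Slc22a3 was not tested. Slc22a4, the ergothioneine carrier OCTN1, rose by 0.75 ± 0.22 with BBR in Vec mice (adjusted p = 0.026), from 1.05 ± 0.278 to 1.79 ± 0.384 CPM (SD, n = 5). It rose by 0.68 ± 0.22 with the knockdown (adjusted p = 0.0465), to 1.71 ± 0.408 CPM. Its first call was lost without Vec replicate 2 or 4 or Vec+BBR replicate 2, 4 or 5 (adjusted p up to 0.0715), and its second without Vec replicate 2, 3 or 4 or shRNA replicate 1, 2 or 4 (adjusted p up to 0.118) and with a replicate block (0.0589). The prostaglandin carrier Slco2a1 had a log2 fold change of −0.47 ± 0.17 with BBR both in Vec mice (adjusted p = 0.069) and under the knockdown (adjusted p = 0.064, and 0.0471 in DESeq2), and the change of Slco3a1 farthest from 0 was −0.23 ± 0.16 in shRNA+BBR against Vec+BBR.

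**Figure D3:**
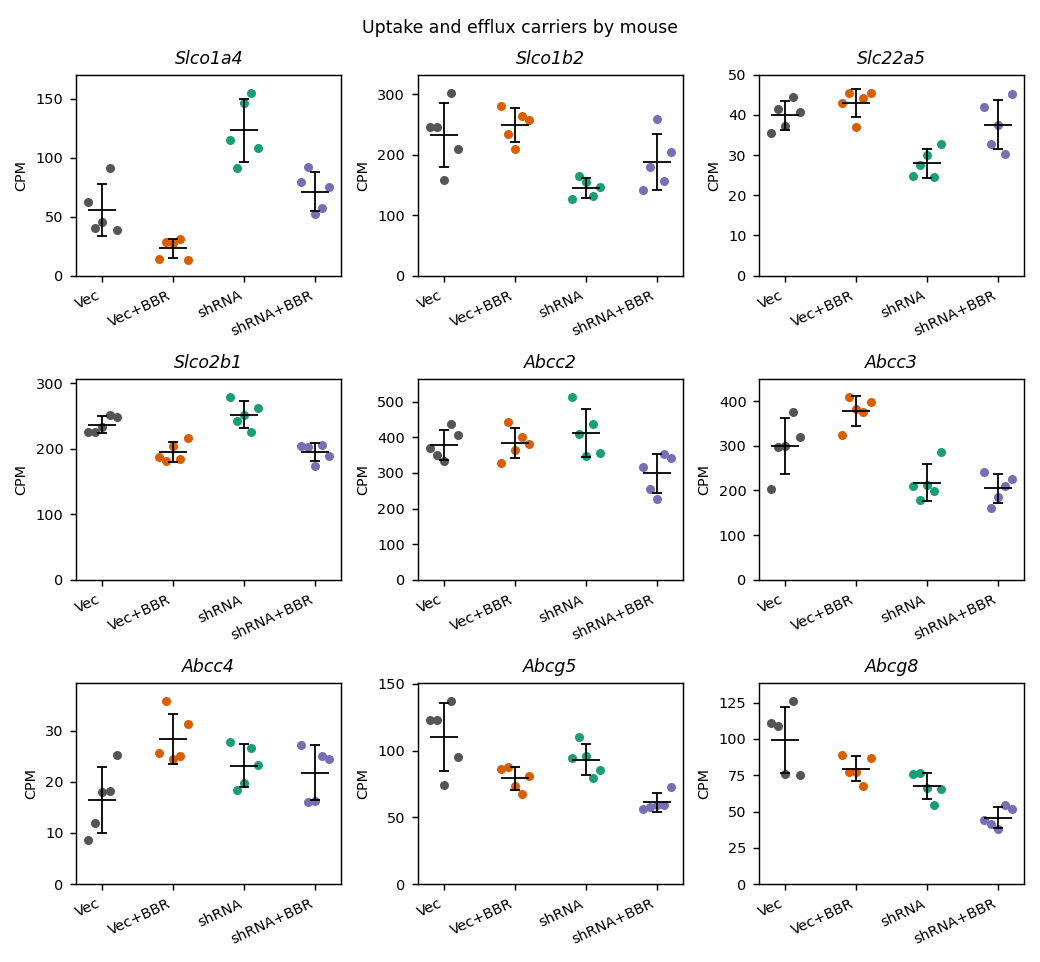
CPM of 4 uptake carriers (Slco1a4, Slco1b2, Slc22a5 and Slco2b1) and 5 efflux carriers (Abcc2, Abcc3, Abcc4, Abcg5 and Abcg8), with 1 point per mouse, 5 mice per group, and the mean and SD as lines. The shRNA+BBR mice lie lowest for Abcg5 and Abcg8, apart from 1 mouse each that reaches the values of another group.

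Abcg5 and Abcg8 encode both subunits of the sterol pump that secretes cholesterol and plant sterols into bile. They are transcribed away from each other on chromosome 17, Abcg5 at chr17:84658234-84683011 on the minus strand and Abcg8 at chr17:84676302-84700333 on the plus strand. The annotated genes overlap over 6710 bases, of which 82 are exonic in both, so without strand a small part of their reads cannot be told apart. The 109 bases between the RefSeq starts of the 2 genes, chr17:84683012-84683120 on the Abcg8 strand, are shown because both genes start there, with capitals for the same motifs as above.
Abcg5-Abcg8: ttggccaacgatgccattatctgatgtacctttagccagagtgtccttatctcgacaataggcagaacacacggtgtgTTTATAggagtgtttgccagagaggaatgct
This stretch held 1 match to TATAAA, on the strand of Abcg5, and none to the other motifs.

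For Abcg5 the CPM was 123, 123, 73.9, 137 and 95.4 in Vec and 86.2, 87.9, 73.3, 67.8 and 81.2 in Vec+BBR, with overlap. In shRNA it was 94.3, 110, 95.7, 79.4 and 85.7, and in shRNA+BBR 56.3, 57.8, 58.9, 59.6 and 73, without overlap. It fell by 0.48 ± 0.13 with BBR in Vec mice (edgeR adjusted p = 0.0192) and by 0.61 ± 0.13 under the knockdown (adjusted p = 0.00849). The first call was lost without Vec replicate 1, 2 or 4 or Vec+BBR replicate 4 (adjusted p up to 0.0594), and the second was kept with any 1 mouse left out.

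For Abcg8 the CPM was 111, 109, 75.8, 126 and 75.5 in Vec and 89.1, 76.9, 77.4, 67.4 and 87.1 in Vec+BBR. In shRNA it was 75.6, 76.5, 66, 54.6 and 65.5, and in shRNA+BBR 44.3, 41.2, 37.7, 54.7 and 51.4, so that the shRNA+BBR mice lay below all mice of the 2 control-vector groups. Abcg8 fell by 0.56 ± 0.14 with the knockdown (edgeR adjusted p = 0.012) and by 0.80 ± 0.14 among BBR-treated mice (adjusted p = 0.00221), and both calls held with any 1 mouse left out. With BBR it fell by 0.56 ± 0.14 under the knockdown (adjusted p = 0.0153), a call lost without shRNA+BBR replicate 3 (adjusted p = 0.0534). In Vec mice the change with BBR was −0.32 ± 0.14 (adjusted p = 0.126).

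Among the other canalicular pumps, Abcc2, the gene of MRP2, which exports bilirubin glucuronides and glutathione conjugates, lies at chr19:43782192-43840740. Its CPM was 370, 351, 333, 437 and 406 in Vec, 329, 443, 363, 400 and 380 in Vec+BBR, 513, 410, 347, 436 and 356 in shRNA and 316, 254, 228, 354 and 341 in shRNA+BBR. It fell by 0.47 ± 0.13 with BBR under the knockdown (edgeR adjusted p = 0.0221), with 4 of 5 shRNA+BBR mice below all shRNA mice. The call was lost without shRNA replicate 1 or shRNA+BBR replicate 2 or 3 (adjusted p up to 0.0722). In Vec mice the change was 0.01 ± 0.13 (adjusted p = 0.96).

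Abcb1a, 1 of 2 mouse genes of the drug pump P-glycoprotein, had 4.51, 4.05, 8.09, 8.32 and 12.4 CPM in Vec and 12, 17.3, 12.7, 12.7 and 9.46 in Vec+BBR. It rose by 0.77 ± 0.26 (edgeR adjusted p = 0.0488), with overlapping groups. The call was lost without Vec replicate 1, 2, 3 or 4 or Vec+BBR replicate 1, 2, 3 or 4 (adjusted p up to 0.142), and also without the filter on low counts (adjusted p = 0.054). Its near copy Abcb1b stayed at or under 1.41 CPM in every mouse and passed in no comparison. Abcb4, the phosphatidylcholine floppase, and Slc47a1, the gene of MATE1, also passed in none. Their log2 fold changes lay between −0.20 ± 0.09 and 0.11 ± 0.09 for Abcb4 and between −0.15 ± 0.09 and 0.04 ± 0.09 for Slc47a1 over the 4 comparisons.

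Abcc3 encodes MRP3, which returns glucuronides and bile acids to blood, and lies at chr11:94343295-94392997. Its CPM was 204, 297, 299, 376 and 319 in Vec and 324, 409, 382, 376 and 398 in Vec+BBR. In shRNA it was 211, 178, 213, 198 and 286, and in shRNA+BBR 242, 161, 185, 210 and 226, all below the lowest Vec+BBR mouse. Among BBR-treated mice Abcc3 was lower with the knockdown by 0.88 ± 0.15 (edgeR adjusted p = 0.00124), a call kept with any 1 mouse left out. Without BBR it fell by 0.46 ± 0.15 (adjusted p = 0.0394), but this call was lost without Vec replicate 2, 3, 4 or 5 or shRNA replicate 1, 2, 3 or 4 (adjusted p up to 0.0969) and without the filter on low counts (adjusted p = 0.0541). With BBR in Vec mice the change was 0.34 ± 0.14 (adjusted p = 0.119).

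The remaining basolateral pumps were lower in level. Abcc4, the gene of MRP4, had 8.62, 11.9, 18, 18.3 and 25.3 CPM in Vec and 25.7, 35.8, 24.5, 25.1 and 31.3 in Vec+BBR, and rose by 0.79 ± 0.22 (edgeR adjusted p = 0.0192). The call was lost without Vec replicate 1 or 2 or Vec+BBR replicate 2 (adjusted p up to 0.0644). Under the knockdown the BBR change of Abcc4 was −0.09 ± 0.22 (adjusted p = 0.805), and the difference between the 2 BBR effects was −0.88 ± 0.31 (adjusted p = 0.155). Abcc6, the pump that is needed for ATP release from liver, fell with the knockdown by 0.43 ± 0.11 (adjusted p = 0.013), from 93.6 ± 12.9 to 69.7 ± 5.79 CPM (SD, n = 5), and the call was lost without Vec replicate 2 (adjusted p = 0.0522). Abcc10 rose with the knockdown by 0.50 ± 0.14 (adjusted p = 0.0233) and fell with BBR under it by 0.45 ± 0.14 (adjusted p = 0.0345). Its 5 shRNA mice, between 3.18 and 4.47 CPM, lay above all Vec mice, whose highest value was 2.76. These 2 calls were lost without shRNA replicate 4 or 5, and the second also without shRNA+BBR replicate 2, 3 or 4 (adjusted p up to 0.0793 and 0.105). Abcc1 and Abcc5 passed in no comparison.

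The cholesterol exporters Abca1 and Abcg1, both known targets of liver X receptors, passed in none of the comparisons in the fit of all 4 groups. Abca1 had 32.9, 23.4, 34.4, 91.8 and 61.6 CPM in Vec and 44, 78, 62.9, 62.1 and 62.6 in Vec+BBR, a wide spread in the control mice. Without Vec replicate 4 the adjusted p of its rise with BBR was 0.0382 (0.404 with all mice). Among BBR-treated mice its log2 fold change with the knockdown was −0.73 ± 0.26 (adjusted p = 0.0839 in edgeR, 0.0504 in DESeq2 and 0.011 in an edgeR fit of these 2 groups alone). Abcg1 stood between 4.8 and 10.4 CPM in all mice, and its change with BBR under the knockdown was 0.43 ± 0.16 (adjusted p = 0.0646, and 0.029 in a fit of these 2 groups alone).

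Of the 7 genes of intracellular membranes, which include mitochondrial and lysosomal transporters, 2 passed. Abca5, a lysosomal ABCA protein, had 3.96, 3.41, 4.46, 5.68 and 5.04 CPM in Vec, all below the 5.81, 8.82, 5.99, 10.5 and 7.3 in Vec+BBR, and rose by 0.77 ± 0.17 (edgeR adjusted p = 0.00531). Abca2, an ABCA protein of endosomes and lysosomes, fell with BBR under the knockdown by 0.58 ± 0.17 (adjusted p = 0.0263), with all shRNA+BBR mice between 18.4 and 33.9 CPM and all shRNA mice between 35.2 and 49.7. The Abca5 call held with any 1 mouse left out, while that of Abca2 was lost without shRNA replicate 2 or 5 or shRNA+BBR replicate 2, 3 or 4 (adjusted p up to 0.0875). Abcb6, Abcb8, Abcb9, Abcb10 and Abca3 did not pass.

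Abca5 lies in a row of ABCA genes on chromosome 11 with Abca6, Abca8a, Abca8b and Abca9, and these close relatives could share reads. Abca8b rose with BBR in Vec mice by 0.47 ± 0.13 (edgeR adjusted p = 0.0215) and Abca9 by 0.69 ± 0.20 (adjusted p = 0.0204). In shRNA+BBR the level of Abca8b was below that in Vec+BBR by 0.52 ± 0.13 (adjusted p = 0.0204). Under the knockdown Abca6 fell with BBR by 0.61 ± 0.18 (adjusted p = 0.0266) and Abca8a by 0.50 ± 0.16 (adjusted p = 0.0422). Each of these 5 calls was lost in 4 to 7 of the 10 fits without 1 mouse. The rise of Abca8b was lost without Vec replicate 1 or 2 or Vec+BBR replicate 2 or 4 (adjusted p up to 0.0778), and that of Abca9 without Vec replicate 1 or 2 or Vec+BBR replicate 2 or 3 (up to 0.0677). Lower Abca8b in shRNA+BBR was lost without Vec+BBR replicate 2, 4 or 5 or shRNA+BBR replicate 2 (up to 0.0734). The fall of Abca6 was lost without shRNA replicate 4 or 5 or shRNA+BBR replicate 2 or 3 (up to 0.0853), and that of Abca8a without shRNA replicate 1, 3, 4 or 5 or shRNA+BBR replicate 2, 3 or 4 (up to 0.114).

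Abcc9, which encodes the regulatory subunit SUR2 of potassium channels and is found in pericytes and muscle rather than hepatocytes, had 10.7, 7.01, 11.9, 11.5 and 14.2 CPM in Vec and 11.6, 18, 17, 20.8 and 17.6 in Vec+BBR. It rose by 0.62 ± 0.15 (edgeR adjusted p = 0.00925), which held with any 1 mouse left out but not in a fit of these 2 groups alone (adjusted p = 0.0534). Among BBR-treated mice it was lower with the knockdown by 0.50 ± 0.15 (adjusted p = 0.0446), a call lost without Vec+BBR replicate 2, 3, 4 or 5 or shRNA+BBR replicate 1, 2, 3 or 5 (adjusted p up to 0.125) and with a replicate block (0.0538). Of the 8 markers of stellate cells 3 rose with BBR in Vec mice (Col1a1, Pdgfrb and Colec11), beside 7.58% of all tested genes. The summed CPM of the 8 ran from 167 to 271 in Vec and from 283 to 313 in Vec+BBR. Dcn held the largest part of it, with means of 130 and 167 CPM, and did not pass (edgeR adjusted p = 0.0914). The part of these cells in the rise of Abcc9 was not tested.

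The genes Slc22a26 to Slc22a30 lie side by side on chromosome 19, between position 7781041 (the start of Slc22a26) and position 8405111 (the end of Slc22a30), and are close paralogs of organic anion carriers. The 250 bases before the RefSeq starts of Slc22a28 and Slc22a30 (chr19:8131983-8132232 and chr19:8405106-8405355, GRCm38.p6, gene strand) are printed to show how alike these 2 genes are before their starts.
Slc22a28: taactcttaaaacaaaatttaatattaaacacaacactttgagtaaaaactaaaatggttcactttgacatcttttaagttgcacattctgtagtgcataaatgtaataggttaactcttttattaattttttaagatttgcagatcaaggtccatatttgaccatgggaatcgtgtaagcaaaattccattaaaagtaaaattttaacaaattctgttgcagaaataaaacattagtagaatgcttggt
Slc22a30: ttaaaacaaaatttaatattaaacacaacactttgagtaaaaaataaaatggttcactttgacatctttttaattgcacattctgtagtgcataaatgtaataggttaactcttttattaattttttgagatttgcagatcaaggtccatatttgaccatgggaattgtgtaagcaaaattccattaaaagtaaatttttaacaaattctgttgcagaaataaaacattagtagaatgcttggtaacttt
With an offset of 6 bases the 2 promoter windows were identical at 288 of 294 positions, 98%. The likeness of their transcripts was not measured. Neither held any of the 4 short motifs on either strand. How reads that fit more than 1 of these genes were assigned was not given in the sources used here, so the values of single paralogs are uncertain.

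Within this cluster the genes did not move alike. Slc22a28 had 3.36, 5.98, 1.27, 1.32 and 1.84 CPM in Vec and 0.599, 0.224, 0.19, 0.491 and 0.565 in Vec+BBR, and fell by 2.69 ± 0.55 (edgeR adjusted p = 0.00278). In shRNA it had 1.42, 0.279, 0.443, 0.526 and 0.208 CPM, and fell by 2.23 ± 0.53 (adjusted p = 0.00791). Slc22a30, a gene of higher level, had 91.7, 117, 64.6, 86.4 and 84.9 CPM in Vec and 65.7, 44.5, 50.3, 51.6 and 60.8 in Vec+BBR. It fell by 0.70 ± 0.15 with BBR (adjusted p = 0.00343) and by 0.52 ± 0.15 with the knockdown (adjusted p = 0.0256). These calls held with any 1 mouse left out, apart from the knockdown call of Slc22a30, which was lost without Vec replicate 1 or 2 or shRNA replicate 2, 4 or 5 (adjusted p up to 0.0898).

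The other genes of the cluster gave calls that were each lost without 1 or more of the mice. Slc22a26 fell with BBR by 1.39 ± 0.39 in Vec mice (edgeR adjusted p = 0.0186) and by 1.28 ± 0.38 under the knockdown (adjusted p = 0.0305). Without Vec replicate 4, which had 17.1 CPM beside 3.14 to 8.01 in the other Vec mice, the log2 fold change in Vec mice was −0.83 (adjusted p = 0.0844). The second call was lost without shRNA replicate 3, 4 or 5 or shRNA+BBR replicate 2, 3 or 4 (adjusted p up to 0.0932), with log2 fold changes between −1.52 and −1.13 over the fits without 1 mouse. Slc22a27 rose with BBR in Vec mice by 1.00 ± 0.29 (adjusted p = 0.0232) and Slc22a29 by 0.76 ± 0.23 (adjusted p = 0.0296), against the direction of their neighbours. Slc22a27 lost its call without Vec replicate 1 or 2 or Vec+BBR replicate 3 or 4 (adjusted p up to 0.0733), and Slc22a29 without Vec replicate 1 or 5 or Vec+BBR replicate 3 or 4 (up to 0.0942). Their log2 fold changes stayed between 0.85 and 1.33 and between 0.59 and 0.90 with any 1 mouse left out.

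Slc22a18 and Slc22a23 are SLC22 genes with less defined substrates. Slc22a18 had 163, 187, 126, 163 and 112 CPM in Vec and 102, 114, 105, 101 and 118 in shRNA, and fell by 0.47 ± 0.12 (edgeR adjusted p = 0.011), which held with any 1 mouse left out. With BBR in Vec mice it fell by 0.37 ± 0.12 (adjusted p = 0.0386), a call lost without Vec replicate 1, 2 or 4 or Vec+BBR replicate 2, 3, 4 or 5 (adjusted p up to 0.123) and in the exact permutation test (p = 0.0714). Slc22a23 fell with BBR under the knockdown by 0.39 ± 0.09 (adjusted p = 0.00982), from 69.9 to 80.2 CPM in the shRNA mice to 51.7 to 63.2 in the shRNA+BBR mice, with any 1 mouse left out.

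Over the 48 pairs of a gene and a comparison that passed, the exact permutation test on log2 CPM (252 assignments, two-sided) gave p between 0.00794, the smallest that 5 against 5 mice allow, and 0.135. It was above 0.05 in 2 of the 48, both given above, and at the smallest value in 14. Since these pairs were chosen by their calls, the test describes their separation and adds no independent support. When only the 2 groups compared entered the edgeR fit, 16 of the 48 calls were lost, 11 of them in Vec+BBR against Vec (Abca8b, Abca9, Abcb1a, Abcc4, Abcc9, Abcg5, Slc22a4, Slc22a18, Slc22a26, Slc22a27 and Slc22a29), 3 in shRNA against Vec (Abcc3, Slc22a4 and Slc22a30) and 2 in shRNA+BBR against shRNA (Abcc10 and Slco1a1). The same fits added 4 calls, Slco2a1 and Abcg1 in shRNA+BBR against shRNA and Abca1 and Abcg5 in shRNA+BBR against Vec+BBR. Without the filter on low counts 6 were lost, namely Abcb1a and Slc22a18 in Vec+BBR against Vec, Abcc3 and Slc22a4 in shRNA against Vec, Abcc10 in shRNA+BBR against shRNA and Abcc9 in shRNA+BBR against Vec+BBR.

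Summed over the 15 efflux carriers described here, the FPKM level was 332 ± 29 in Vec, 350 ± 33.5 in Vec+BBR, 302 ± 15.3 in shRNA and 262 ± 28.5 in shRNA+BBR (SD, n = 5). Abcc2 held the largest share of this sum in Vec livers, 18.2%. These sums are a description with no test.

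By side of the cell, the canalicular sum was 246 ± 20.1, 240 ± 20.4, 233 ± 9.89 and 195 ± 21 FPKM in the same order of groups. The basolateral sum, mostly Abcc3, was 80.2 ± 14.1, 103 ± 13.3, 63.8 ± 9.47 and 61.3 ± 9.26 FPKM. In CPM this sum was 414 ± 70.9, 492 ± 38.5, 317 ± 46.8 and 296 ± 48.2. The ratio of Vec+BBR to Vec was 1.28 in FPKM and 1.19 in CPM. In Vec+BBR the lowest basolateral value, 83 FPKM, was above the highest of the 2 knockdown groups, 80 FPKM.

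**Figure D4:**
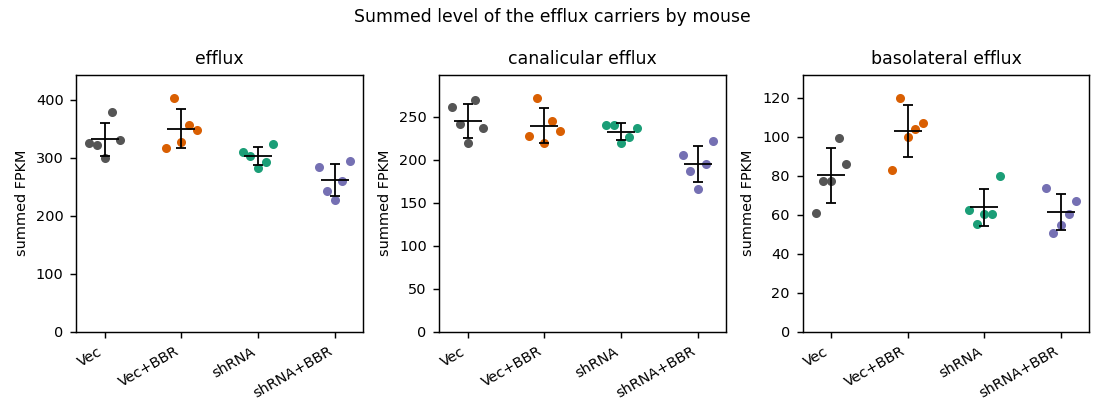
Deposited FPKM summed over all 15 efflux carriers described here, over the 7 canalicular and over the 6 basolateral ones, with 1 point per mouse, 5 mice per group, and mean and SD as lines. The mean canalicular sum is lowest in shRNA+BBR, and the basolateral sum of every Vec+BBR mouse (83 FPKM or more) lies above all shRNA and shRNA+BBR mice.

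Whether the BBR effect differed between vectors was tested as an interaction. No transporter gene passed in edgeR. Beside this, the log2 fold change with BBR was higher under the knockdown in 0.0729% of all tested genes and lower in 0.0729%. At an unadjusted p under 0.05 there were 3 transporter genes with a higher and 11 with a lower value, 14 of 46. Of all 12342 tested genes, 1208 had a higher and 1073 a lower value at that threshold, 18.5% in both directions together. A lower value can be a smaller rise or a larger fall. DESeq2 called 2 of the 46, beside 2.41% of the genes for which it gave an adjusted p, namely Slc22a4 (−1.29 ± 0.31, adjusted p = 0.0796 in edgeR and 0.0271 in DESeq2) and Abca9 (−1.05 ± 0.28, adjusted p = 0.0974 and 0.0397). For Slc22a4 and Abca9 the BBR effect was lower under the knockdown, so that with these tools the call of a difference depends on which was used.

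Other carriers of the hepatocyte membrane and their scaffold partners, a list of 19 genes, gave 1 that rose and 4 that fell in Vec+BBR against Vec. Slc10a1, the gene of the sodium-dependent bile acid carrier NTCP, fell by 0.45 ± 0.13 (edgeR adjusted p = 0.0184), from 689 ± 146 to 503 ± 58.9 CPM (SD, n = 5), and Slc27a5, a bile acid and fatty acid CoA ligase, by 0.75 ± 0.13 (adjusted p = 0.00102). Under the knockdown 1 rose with BBR, the mitochondrial carnitine carrier Slc25a20 (0.36 ± 0.10, adjusted p = 0.0194), and 3 fell, among them the urate carrier Slc2a9 by 0.54 ± 0.10 (adjusted p = 0.00445). In shRNA against Vec 3 rose and 1 fell, and Slc51b, a subunit of the basolateral bile acid exporter, rose by 1.75 ± 0.46 (adjusted p = 0.0146), from 1.11 ± 0.773 to 3.78 ± 1.08 CPM. In shRNA+BBR against Vec+BBR 0 rose and 1 fell. Of all tested genes, 7.58% rose and 7.88% fell in Vec+BBR against Vec, and 8.37% and 7.28% in shRNA+BBR against shRNA. The shares were 5.28% and 7.91% in shRNA against Vec, and 3.31% and 4.82% in shRNA+BBR against Vec+BBR.

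Of 24 regulators of transporter genes, 0 rose and 1 fell with BBR in Vec mice, beside 7.58% and 7.88% of all tested genes. Under the knockdown 1 rose and 3 fell with BBR, beside 8.37% and 7.28%. With the knockdown 0 rose and 3 fell, beside 5.28% and 7.91% of all tested genes. The 3 were Pparg, the target of the shRNA, by 2.12 ± 0.28 (edgeR adjusted p = 4.472e-05), the repressor Bcl6 by 1.59 ± 0.41 (adjusted p = 0.0133) and Cebpa by 0.45 ± 0.11 (adjusted p = 0.00833). Among BBR-treated mice only Pparg fell, by 1.20 ± 0.26 (adjusted p = 0.00843), beside 4.82% of all tested genes. The receptors Nr1h4 (FXR), Nr1i2 (PXR), Nr1i3 (CAR) and Ppara did not pass in any of the 5 tests.

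Slco1a4 is itself a female-biased gene, and other genes with sex-biased levels in liver were counted in the same comparisons, to be read beside the shares of all tested genes given above. Of 16 female-biased genes, 6 fell and 0 rose with BBR in Vec mice, 8 fell and 0 rose under the knockdown, 3 rose and 0 fell with the knockdown, and 6 rose and 1 fell in shRNA+BBR against Vec+BBR. Cyp3a41a ran from 20.9 to 659 CPM in Vec, from 0.448 to 6.54 in Vec+BBR, from 331 to 734 in shRNA and from 22.3 to 190 in shRNA+BBR. The 11 male-biased genes tested gave 0 that rose and 1 that fell with BBR in Vec mice, 3 and 1 under the knockdown, 0 and 4 with the knockdown and 0 and 1 among BBR-treated mice. Their part in the change of Slco1a4 was not tested.

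Markers of cell types moved in some of the same comparisons, and their counts are to be read beside the shares of all tested genes given above. With BBR in Vec mice 0 of 6 hepatocyte markers rose and 3 fell (Tat, Cps1 and Serpina1a). The summed CPM of the 6 ran from 114309 to 144305 in Vec and from 84733 to 119661 in Vec+BBR. It was mostly Alb, with means of 109728 and 91169 CPM, which did not pass (edgeR adjusted p = 0.114). Of 8 endothelial markers 5 rose and 0 fell, with sums from 91.1 to 121 in Vec and from 115 to 158 in Vec+BBR. In shRNA against Vec 1 hepatocyte marker fell, and 3 endothelial markers rose, with sums from 126 to 161 CPM in shRNA. Of 8 macrophage markers 1 rose and 2 fell with BBR in Vec mice, with sums from 121 to 329 in Vec and from 159 to 255 in Vec+BBR. Of 5 cholangiocyte markers tested 1 rose (Spp1), with sums over the list from 24.1 to 45.4 in Vec and from 50.5 to 97.1 in Vec+BBR. These sums were mostly Spp1, with means of 30.5 and 61.1 CPM, while each other marker of the list had a mean of at most 1.58 CPM. The 4 lymphocyte markers tested gave 0 that rose and 2 that fell, with sums of at most 6.91 CPM in Vec. Under the knockdown BBR gave 0 and 2 hepatocyte markers that rose and fell, 1 and 2 endothelial, 3 and 0 stellate, 1 and 0 macrophage, 1 and 0 cholangiocyte and 1 and 0 lymphocyte markers. With the knockdown alone 1 stellate, 1 macrophage and 1 lymphocyte marker fell and 0 rose, and among BBR-treated mice 1 lymphocyte marker rose. No defining marker of these lists was at 0 in all libraries of a group, and the part of a change in cell types in the transporter results was not tested.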

How the data were processed

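Poly(A) RNA of 20 livers was sequenced, 1 library per mouse. The authors deposited, per the file headers, expected counts and FPKM values per gene, and their processing notes name the mm10 build. The aligner and the counter are not given in the sources used here. Expected counts, of which 91.9% to 93.3% per library were whole, were rounded. edgeR 4.0.16 (R 4.3.3) was run with TMM scaling (factors from 0.873 to 1.14), filterByExpr by group, 1 fit of 4 group means and quasi-likelihood tests, adjusted by the Benjamini-Hochberg method over 12342 genes. The test was checked on simulated data in which every gene had the same spread, so the check does not cover genes that vary widely between mice. FPKM was used as deposited for levels between genes and for sums over efflux carriers, and was not tested. CPM carried the TMM scaling. Gene positions came from GENCODE M21 on GRCm38, and promoter sequences, found for 38 of 46 genes, from RefSeq. The transporter genes, their roles and all gene lists were chosen with earlier results of these data known. Named were all genes past the threshold in any comparison and 17 carriers fixed by name. Some genes of these families are not reported here, and no sum over uptake carriers is given. Mice are the replicates. Alternatives were DESeq2 1.42.0, RLE size factors, other filters, fits of 2 groups, a replicate block and each mouse left out.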

Additional observations from a re-analysis of the deposited data

Results flagged for a closer look

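In 184 groups of 5 mice (46 genes in 4 groups), 11 had 1 mouse whose CPM stood far from the others by Dixon's gap test, and about 9.2 would be so by chance at 1 in 20. The high values were Slco1a1 at 9.14 in shRNA replicate 1 (next mouse 1.49), Slc22a28 at 1.42 in shRNA replicate 1 (next 0.526), Slco2a1 at 35.9 in shRNA replicate 5 (next 27.2), Abcb1b at 1.41 in Vec+BBR replicate 5 (next 0.672) and at 1.19 in shRNA+BBR replicate 4 (next 0.622), and Abcg5 at 73 in shRNA+BBR replicate 5 (next 59.6). The low values were Slc22a5 at 37 in Vec+BBR replicate 3 (next 43), Abcb10 at 15.4 in Vec+BBR replicate 1 (next 19.1), Abca8b at 13.8 in shRNA+BBR replicate 2 (next 17.1), Abca9 at 1.09 in shRNA+BBR replicate 3 (next 1.5) and Abcg1 at 6.75 in shRNA+BBR replicate 4 (next 8.41). No mouse held more than 2 of these values.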

How the results depend on the processing

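The number of transporter genes past the threshold in Vec+BBR against Vec was 18, and 7 when the fit held only those 2 groups, and it ran from 8 to 19 with 1 mouse left out. It ran from 4 to 15 in shRNA+BBR against shRNA (13 with all mice), from 7 to 12 in shRNA against Vec (11 with all mice), from 3 to 7 in shRNA+BBR against Vec+BBR (6 with all mice) and from 0 to 1 for the interaction (0 with all mice, and 2 in DESeq2). Of the 48 calls, DESeq2 and RLE size factors kept all 48, and DESeq2 added 3 outside the interaction (Slco2a1 in shRNA+BBR against shRNA, adjusted p = 0.0471, and Abcc6, 0.0365, and Abca9, 0.0466, in shRNA+BBR against Vec+BBR), a minimum of 10 counts in every library kept all 44 that could be fitted and added 1 (Abca9 in shRNA+BBR against Vec+BBR), no filter lost 6, the fits of 2 groups lost 16 and added 4, and leaving out 1 mouse lost 145 of 480 and added 18. Signs were compared for the 48 calls and for 19 further pairs of a carrier fixed by name and a comparison. Pairs with changes nearer to 0 were not among them. A change of sign was seen there once, in Slco1a1 for shRNA+BBR against Vec+BBR (log2 fold change 0.37, and −0.21 to 0.70 with 1 mouse left out). The cause of these changes was not tested.

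With a replicate block the counts of calls were 17, 14, 11, 6 and 0 (Vec+BBR against Vec, shRNA+BBR against shRNA, shRNA against Vec, shRNA+BBR against Vec+BBR and the interaction), and 4 of the 48 calls were lost (Slc22a3 in Vec+BBR against Vec, Slc22a4 in shRNA against Vec, Slco1a1 in shRNA+BBR against shRNA and Abcc9 in shRNA+BBR against Vec+BBR) while 4 were added (Slco2a1 and Slc22a27 in shRNA+BBR against shRNA, Abca6 in shRNA against Vec and Abca2 in shRNA+BBR against Vec+BBR). Same-numbered mice deviated together with a correlation over 0.1 in 1 of 5 pairs of Vec and Vec+BBR and in 3 of 5 pairs of shRNA and shRNA+BBR, so the numbers were not taken to pair the mice. Genes with few counts, Slco1a1, Slc22a28 and Abcb1b above all, are limited by depth, and reads shared between near copies were not measured.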
